A study of Rattus norvegicus with 21 samples.

Results

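The comparison is a knockdown aimed at Klf2 in resting heart muscle cells, read from 4 RNA sequencing libraries of the series' 21 samples. They were the siKlf2 and siNeg columns without phenylephrine of the knockdown count table, 2 libraries in each group, chosen by their labels and not by any measured value. The cells were neonatal rat ventricular myocytes (NRVMs), heart muscle cells isolated from newborn rat ventricles and kept in primary culture. Such cultures are not pure by nature, and the labels do not name the litter, the number of animals pooled or the preparation of a library, so a p-value here speaks only of the spread among the libraries, and that spread may be technical. The siKlf2 group received a small interfering RNA against Klf2, and the siNeg group a negative control one. Phenylephrine (PE), an α1-adrenergic agonist used to induce hypertrophy, followed 12 h later in other arms. Every label of an RNA library carries a 100 µM PE treatment, and the 4 libraries used here are set apart by a time of 0 hours and by titles without PE, whereas the PE libraries carry 36 hours.

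Krüppel-like factor 2 (KLF2) is a zinc finger transcription factor that binds GC-rich and CACCC-type DNA elements. It is best known in the endothelium, where blood flow induces it and where it keeps vessels quiescent and anti-inflammatory, and it is also known for holding T cells at rest. A small interfering RNA loads onto the Argonaute protein and guides the cutting of a matching messenger RNA, so a knockdown lowers a transcript without removing the gene. The question put by this comparison was what lowering Klf2 does in myocytes that have received no hypertrophic stimulus.

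The count tables list genes by Ensembl ID, and 0 of the 30560 IDs matched a symbol in the reference used here. The level of Klf2, the purity of the myocytes and the behaviour of named pathways were therefore not analysed here, and genes are described by their level, direction and size of change. Knockdown below names the siKlf2 arm set against siNeg. Whether Klf2 itself fell, and by how much, was not tested. Total counts were 202982403 and 206306054 in the siKlf2 libraries and 199069070 and 181101876 in the siNeg libraries, so a level of 1 CPM, the count scaled to a common library size, stands for 181.1 to 206.3 counts before TMM factors are applied. Even values made up 61.5% to 63.2% of the counts between 1 and 20 in these libraries, more than an equal split of odd and even values would give, so a fragment may often have added a count for each mate, and counting error is then larger than the counts imply. Levels in CPM are not divided by gene length, so a class of level mixes abundance with length.

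Knockdown moved a large part of the resting transcriptome, mostly by small amounts. Of 18173 genes tested, 53.9% passed the test in siKlf2 against siNeg (edgeR's quasi-likelihood test, Benjamini-Hochberg adjusted p under 0.05 over all genes tested). The higher genes made up 27.2% of all tested and the lower genes 26.8%. Among the genes that passed, 67.8% differed by less than 1.5-fold, and the median absolute log2 fold change was 0.39. At a fold of at least 1.5, 5.83% of tested genes were higher and 11.5% were lower. At a fold of at least 2, 358 genes were higher (1.97%) and 1081 were lower (5.95%). The 4-fold mark was passed by 52 genes upward and 170 downward. Under 1 CPM were 149 of the 358 rises and 623 of the 1081 falls at 2-fold. At 4-fold it was 30 of the 52 rises and 142 of the 170 falls. At 10 CPM or more, 141 genes were higher and 126 lower by 2-fold, and 16 and 7 by 4-fold. With all counts halved, which allows for a count per mate, 111 genes fell by at least 4-fold. Of the 18173 genes, 16912 were then still tested, so fewer genes could be counted.

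The number of genes in each direction depended on how the libraries were scaled. The trimmed mean of M-values (TMM) method sets the bulk of genes to no change, and its factors were 0.99 and 0.97 in the siKlf2 libraries and 1.12 and 1.12 in the siNeg libraries. With library totals alone the median log2 fold change of all tested genes was -0.22, against -0.02 with TMM factors. Rises then made up 21.9% of the calls, against 50.3% with TMM factors. This held for the larger folds too, where library totals gave 567 higher and 3364 lower genes at 1.5-fold, 221 and 1623 at 2-fold, and 267 falls of at least 4-fold. Changes are given relative to TMM scaling unless another is named.

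By median absolute log2 difference, the 2 groups differed by more than their replicates in every class of level. Replicate differences were taken with 0.05 CPM added to each level, and the group difference was the fitted one. The 2 are therefore unlike measures, above all under 1 CPM. For genes of 10 to 100 CPM the median absolute log2 difference was 0.039 between the siKlf2 libraries and 0.034 between the siNeg libraries, whereas the median absolute log2 fold change between the groups was 0.20. At 1000 CPM or more the replicate differences had medians of 0.033 in siKlf2 and 0.029 in siNeg, and the fold change between groups 0.37. Genes under 1 CPM had median replicate differences of 0.26 in siKlf2 and 0.25 in siNeg, against 0.49 between groups. The fitted standard error of a log2 fold change was accordingly 0.40 at the median under 1 CPM and 0.043 at 10 to 100 CPM. Smaller folds could thus pass the test above 10 CPM than among the lowest genes. The levels of the groups did not overlap for 78.0% of tested genes. With 2 libraries against 2, a share of 0.333 would not overlap if the groups did not differ.

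**Figure D1:**
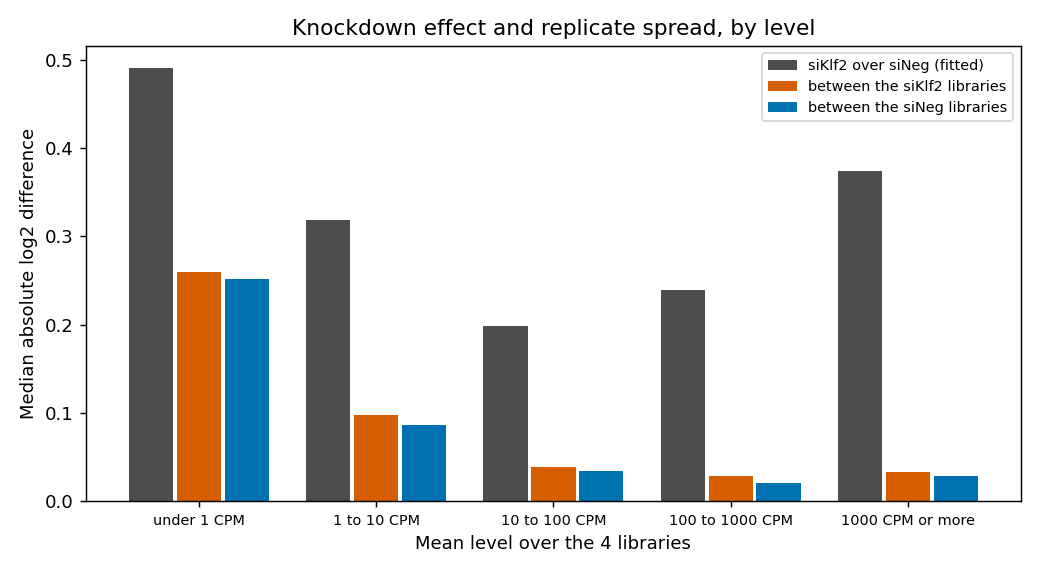
Bars give the median absolute log2 difference over genes (y axis) in 5 classes of mean level over the 4 libraries (x axis), for siKlf2 over siNeg as fitted and between the 2 libraries of siKlf2 and of siNeg. The difference between groups exceeds both replicate differences in every class, by the smallest ratio under 1 CPM, where the medians are 0.49, 0.26 and 0.25. Only the replicate differences have 0.05 CPM added to each level.

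The direction of the change followed the level of the gene. At 1000 CPM or more, 58 of 72 tested genes rose and 3 fell after knockdown. At 100 to 1000 CPM, 1124 of 1849 genes rose and 340 fell. At 10 to 100 CPM both directions were common, with 2851 of 7140 genes higher and 2116 lower. Below 10 CPM most changed genes fell. Of 3740 genes at 1 to 10 CPM, 626 were higher and 1505 lower, and of 5372 genes under 1 CPM, 275 were higher and 904 lower.

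With a fold of at least 1.5, falls prevailed below 10 CPM, rises and falls were close in number at 10 to 100 CPM, and rises prevailed above. Of the genes under 1 CPM, 4.73% were higher and 16.1% lower, and at 1 to 10 CPM 5.83% were higher and 21.0% lower. The shares were 5.28% higher and 5.56% lower at 10 to 100 CPM, and 10.2% higher and 2.6% lower at 100 to 1000 CPM. At 1000 CPM or more, 21 genes were higher by this fold, 29.2% of the class, and 0 were lower. In that class 3 genes passed the test downward with smaller folds, and DESeq2 also gave 0 falls of at least 1.5-fold. The 254 higher genes under 1 CPM became 163 without siNeg replicate 2 and 165 without siKlf2 replicate 1, and the 864 lower genes became 571 without siNeg replicate 2. Each of those fits has 1 library fewer.

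Median log2 fold changes ran from -0.23 under 1 CPM through -0.15, 0.04 and 0.17 to 0.37 at 1000 CPM or more. Each of the 4 pairings of a siKlf2 library with a siNeg library gave the same order, with medians of -0.19 to -0.16 under 1 CPM and 0.35 to 0.43 at 1000 CPM or more when 0.05 CPM was added to each level. Between replicates no class median exceeded 0.02 in size. Library totals in place of TMM factors lowered all medians, to -0.43 under 1 CPM, -0.35 at 1 to 10 CPM, -0.16 at 10 to 100 CPM, -0.03 at 100 to 1000 CPM and 0.18 at 1000 CPM or more, and left their order as it was. In absolute direction, then, the classes from 10 to 1000 CPM turned with the scaling. With library totals, 178 genes at 10 to 100 CPM were higher and 810 lower by at least 1.5-fold, against 377 and 397 with TMM factors, and at 100 to 1000 CPM 93 were higher and 110 lower, against 189 and 48. The 21 higher genes at 1000 CPM or more became 11, with 0 lower. Under 1 CPM there were 156 higher and 1266 lower genes with library totals, and at 1 to 10 CPM 129 higher and 1178 lower.

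A class set by the mean of all 4 libraries takes in genes that are high in a single group. Of the 72 genes at 1000 CPM or more, 16 had a siNeg mean under 1000 CPM, and their siKlf2 level put them there. When classes were instead set by the siNeg libraries alone, a choice made after the data were seen, 42 of 57 genes at 1000 CPM or more were called higher and 4 lower, with 12 higher and 1 lower by at least 1.5-fold. When they were set by the PE libraries, which are separate from the 4 compared, 81 of 93 were called higher and 3 lower, with 34 higher and 1 lower by at least 1.5-fold. Class medians from the lowest level to the highest were -0.20, -0.15, 0.04, 0.14 and 0.33 with siNeg levels, and -0.24, -0.16, 0.04, 0.19 and 0.43 with levels in the PE libraries.

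**Figure D2:**
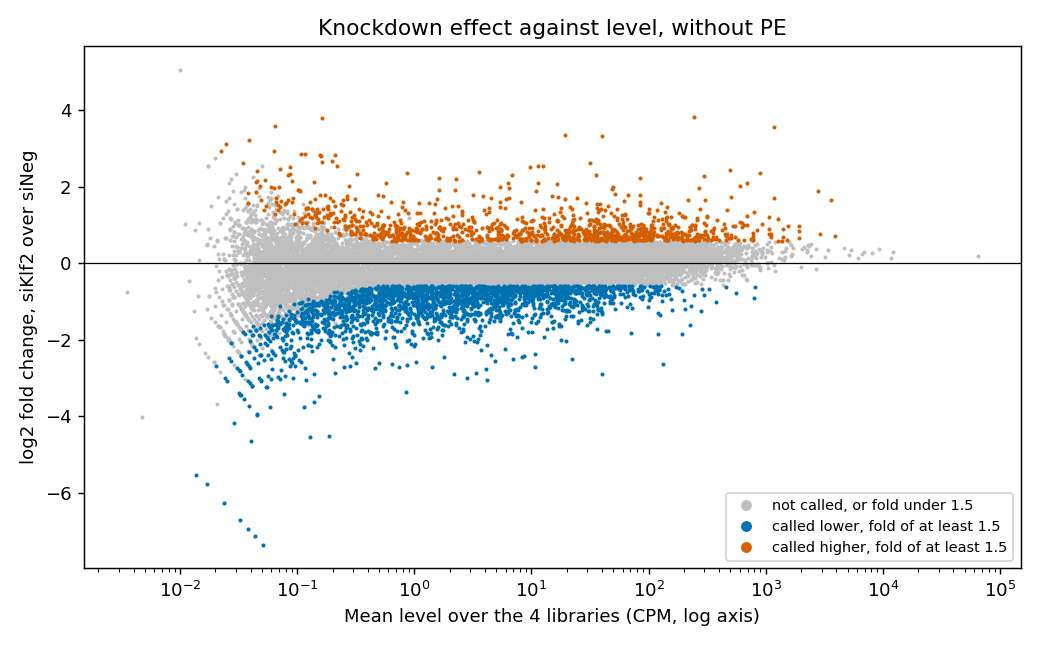
Each point is 1 of 18173 tested genes, with its mean level over the 4 libraries on the x axis (CPM, log scale) and its log2 fold change of siKlf2 over siNeg on the y axis. Called genes past a fold of 1.5 are in colour, and the lower ones gather under 10 CPM while the higher ones extend beyond 1000 CPM.

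**Figure D3:**
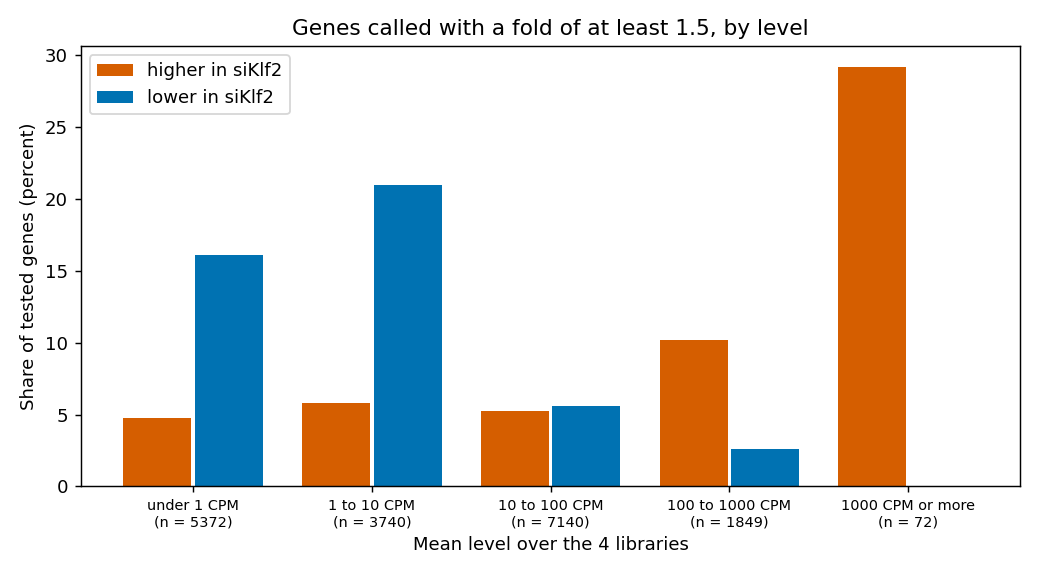
Bars give the percentage of tested genes in each class of mean level that were called higher or lower in siKlf2 with a fold of at least 1.5, under TMM scaling. Lower genes prevail under 10 CPM, with 16.1% and 21.0% of the 2 lowest classes, and higher genes at 1000 CPM or more, with 29.2%, a share that was 21.1% when siNeg levels set the classes.

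Shares of the raw counts, which amount to scaling by library totals, were larger in siKlf2 for the most abundant class. The classes were set by the mean of all 4 libraries. Of the 72 genes at 1000 CPM or more, 16 had a siNeg mean under 1000 CPM. Part of the gain in share is thus built in, and shares were not computed with classes set by other libraries. Genes of 1000 CPM or more took 26.4% and 27.4% of all counts in the siKlf2 libraries, against 24.4% and 23.8% in the siNeg libraries. The 100 to 1000 CPM class was nearly level, at 44.6% and 44.1% in siKlf2 and 43.8% and 44.0% in siNeg. Genes of 10 to 100 CPM lost share, with 27.4% and 26.9% in siKlf2 and 29.7% and 30.0% in siNeg, although their median log2 fold change with TMM factors was 0.04. Genes of 1 to 10 CPM took 1.51% and 1.47% in siKlf2 and 1.89% and 1.93% in siNeg, and those under 1 CPM took 0.132% and 0.128% in siKlf2 and 0.176% in each siNeg library. The groups did not overlap in any of these classes, although 2 libraries against 2 cannot give an exact two-sided permutation p under 0.333. Fewer genes were detected after knockdown despite higher totals. At least 10 counts were present for 17310 and 17309 IDs in the siKlf2 libraries and for 17837 and 17656 IDs in the siNeg libraries. Complete switches were rare at this depth. A single ID had 0 counts in both siNeg libraries and at least 10 in both siKlf2 libraries, and 3 IDs had 0 counts in both siKlf2 libraries and at least 10 in both siNeg libraries. In bulk RNA, fewer cells of a type and less RNA per cell cannot be told apart, and this holds for all of these shifts.

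The genes with the largest rises were far above their replicate spread. Among genes of at least 10 CPM whose groups did not overlap, 4033 were called higher, and the 15 with the largest log2 fold changes ran from 2.06 to 3.81. In all 15 the replicates of each group lay within 1.1-fold of each other.

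ENSRNOG00000008141 had the largest rise, with 433.6 and 471.5 CPM in the siKlf2 libraries, against 32.07 and 32.24 CPM in the siNeg libraries. Both siKlf2 libraries stood far above both siNeg libraries, with means of 452.6 ± 26.8 CPM in siKlf2 and 32.16 ± 0.117 CPM in siNeg (SD, n = 2 each). This 14.1-fold rise had a log2 value of 3.81 (SE 0.0746, adjusted p = 3.63e-11 in edgeR). ENSRNOG00000008176 was next, with 2171 and 2163 CPM in siKlf2, against 183.1 and 181.8 CPM in siNeg. It rose 11.9-fold, or by 3.57 on the log2 scale (SE 0.0462, adjusted p = 2.9e-12 in edgeR), and took 0.215% and 0.21% of all counts in the siKlf2 libraries, against 0.0205% in each siNeg library. For both IDs the log2 fold change stayed between 3.37 and 3.89 under every alternative that was run.

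The next 2 rises by size were of genes at lower levels. The third was a gene at 36.41 and 34.09 CPM in siKlf2, against 3.593 and 3.367 CPM in siNeg, a log2 fold change of 3.34 (SE 0.0509). The fourth had 73.9 and 70.62 CPM in siKlf2, against 7.415 and 6.921 CPM in siNeg, a log2 fold change of 3.33 (SE 0.042). Abundant genes also appeared among the 15, since the ninth had 1496 and 1517 CPM in siKlf2, against 295.7 and 296.2 CPM in siNeg. These genes thus covered mean levels of 3.39 to 296 CPM in the siNeg libraries and 18.2 to 2170 CPM in the siKlf2 libraries.

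Among genes of at least 10 CPM the largest falls were smaller than the largest rises, and part of them varied strongly between replicates. Over all tested genes falls outnumbered rises at the far end, with 8 genes higher and 39 lower by at least 8-fold, and 37 of those falls were under 1 CPM. Of the 2459 genes called lower under the same conditions, the 15 with the lowest log2 fold changes ran from -2.89 to -1.73. Replicates lay within 1.2-fold of each other in both groups for 10 of these 15, whereas 5 were at least 1.5-fold higher in siNeg replicate 2 than in siNeg replicate 1. ENSRNOG00000001963, the lowest by fold, had 6.204 and 12.75 CPM in the siKlf2 libraries, against 30.24 and 110.4 CPM in siNeg replicates 1 and 2. The groups did not overlap, as the choice required, but siNeg replicate 2 lay far above the other siNeg library. The fitted log2 fold change, -2.89 (SE 0.509, adjusted p = 0.000541 in edgeR), rested partly on that library. It was -1.67 without siNeg replicate 2, -3.54 without siNeg replicate 1, -2.45 without siKlf2 replicate 1 and -3.50 without siKlf2 replicate 2, and each of these fits kept the call. ENSRNOG00000033220 followed, with 1.922 and 3.746 CPM in siKlf2, against 10.73 and 26.43 CPM in siNeg, where replicate 2 was again the higher. Its log2 fold change of -2.71 (SE 0.397, adjusted p = 0.000136 in edgeR) was -1.92 without siNeg replicate 2, -3.22 without siNeg replicate 1, -2.30 without siKlf2 replicate 1 and -3.27 without siKlf2 replicate 2.

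In the other 10 falls the replicates of each group lay within 1.2-fold of each other. The third by fold had 36.15 and 37.69 CPM in siKlf2, against 239 and 221.7 CPM in siNeg, a log2 fold change of -2.64 (SE 0.104, adjusted p = 4.72e-09 in edgeR). The sixth had 7.742 and 7.706 CPM in siKlf2, against 31.33 and 31.67 CPM in siNeg. The ninth was the most abundant in siNeg of the 15, with 84.14 and 80.92 CPM in siKlf2, against 300.9 and 300.2 CPM in siNeg, a log2 fold change of -1.86 (SE 0.0318, adjusted p = 1.46e-11 in edgeR).

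**Figure D4:**
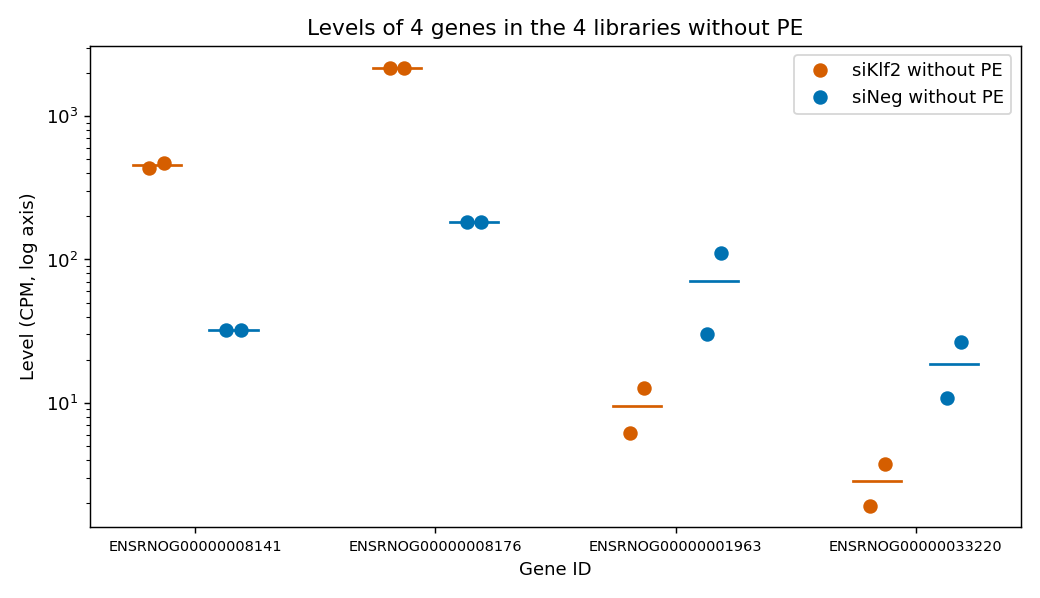
Points are the levels (CPM, log axis) of 4 genes in each library without PE, siKlf2 in orange and siNeg in blue, and lines are group means (n = 2 each). The genes were chosen among those whose groups do not overlap, so the separation of the siKlf2 and siNeg points is built in. The siNeg libraries of the 2 falling genes differ from each other, as 30.24 and 110.4 CPM for ENSRNOG00000001963.

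The 2 lowest genes belonged to a wider set that was uneven between the siNeg libraries. Among 9061 genes of at least 10 CPM, 29 were at least 1.5-fold higher in siNeg replicate 2 than in replicate 1, and 0 were higher to that degree in replicate 1. The same count was 3 against 0 between siKlf2 replicates 2 and 1. All 29 genes were also higher in siKlf2 replicate 2 than in siKlf2 replicate 1. The share of all 9061 genes with that order was not computed. Median log2 differences of siKlf2 replicate 2 over replicate 1 were 0.0, 0.01 and 0.02 in the classes from 10 CPM up. Median levels of the 29 genes were 16.1 and 18.3 CPM in siKlf2 replicates 1 and 2, and 25.8 and 50.8 CPM in siNeg replicates 1 and 2.

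Knockdown was called lower for 24 of the 29 and higher for 0, but a high siNeg replicate 2 is how they were chosen. Set against siNeg replicate 1 alone, both siKlf2 libraries were lower for 24 of the 29, as they were for 37.0% of all 9061 genes. In the PE libraries, which had no part in the choice, knockdown lowered 24 of the 29 and raised 1, and it lowered 29.5% of the 9061 genes. Their median levels there were 16.2 and 11.5 CPM in siKlf2 with PE, against 30.5 and 25.6 CPM in siNeg with PE, where replicate 2 was the lower one in both groups. The part of a cell preparation, culture or library step in this unevenness was not tested.

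Most of the larger changes were present again in the PE libraries, which are separate from the 4 libraries above. The labels give 0 hours at rest and 36 hours with PE, so differences between the 2 settings cannot tell PE from time. Of the 358 genes at least 2-fold higher in resting siKlf2 cells, 270 (75.4%) were called higher and 5 lower in siKlf2 with PE against siNeg with PE, where 26.1% of all tested genes were called higher. Of the 1081 genes at least 2-fold lower at rest, 793 (73.4%) were called lower and 1 higher with PE, where 28.2% of all tested genes were called lower. Read the other way, 345 of the 438 genes at least 2-fold higher with PE (78.8%) and 752 of the 1028 lower (73.2%) were called in the same direction at rest. Of all tested genes, 27.2% were called higher and 26.8% lower at rest. Among genes under 1 CPM, 70 of 149 higher genes and 341 of 623 lower genes were called in the same direction with PE. At 10 to 100 CPM it was 85 of 85 higher and 114 of 115 lower genes. The shares of all genes of these classes called with PE were not computed. Call rates of low and abundant genes were not tested against each other, and standard errors were larger for the low ones.

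Median log2 fold changes of the 358 higher genes were 1.14 with PE and 1.33 at rest. For the 1081 lower genes they were -1.10 with PE and -1.38 at rest. A smaller value with PE is partly built in, because the genes were picked for a large change at rest. Across all tested genes the fold changes with and without PE had a Spearman correlation of 0.54 under 1 CPM and of 0.81 to 0.83 in each of the other 4 classes, as a description over genes that share their libraries. The gradient with level recurred with PE as well, with class medians of -0.25, -0.18, 0.02, 0.15 and 0.37 from the lowest class to the highest.

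**Figure D5:**
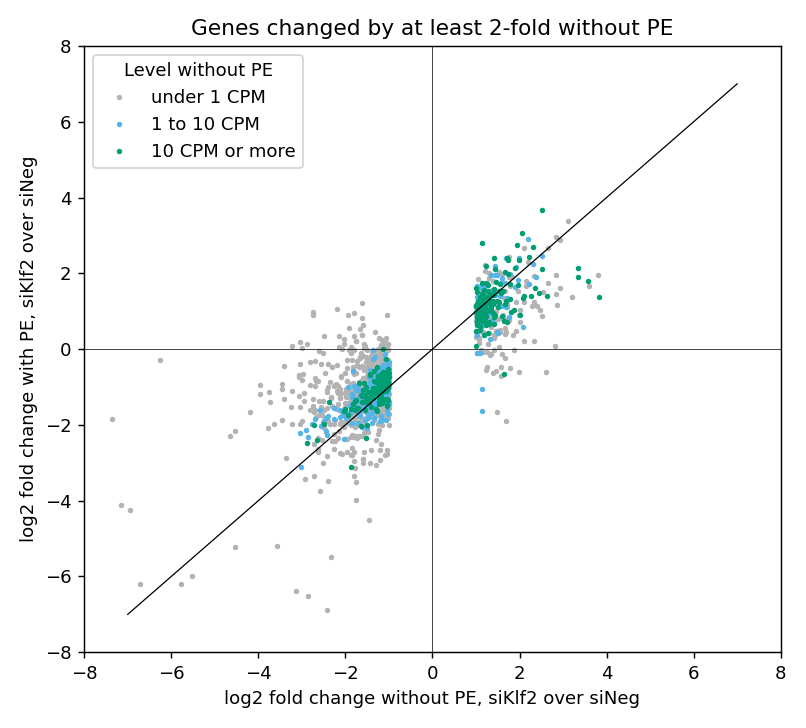
Points are genes called with at least a 2-fold change without PE, with their log2 fold change of siKlf2 over siNeg without PE on the x axis and with PE on the y axis, coloured by level, and the line marks equal values. Most points lie in the quadrants of equal sign, with 270 of 358 higher genes and 793 of 1081 lower genes called in the same direction with PE.

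The followed genes differed in how much of their change was seen with PE. ENSRNOG00000008141 had 2058 and 2040 CPM in siKlf2 with PE, against 723 and 857.8 CPM in siNeg with PE, a log2 fold change of 1.37 (SE 0.0668, adjusted p = 1.99e-08 in edgeR). Both siNeg levels with PE were above both resting siKlf2 levels of this gene, and the same held for ENSRNOG00000008176. ENSRNOG00000008176 had 9929 and 9974 CPM in siKlf2 with PE, against 2754 and 3015 CPM in siNeg with PE, a log2 fold change of 1.79 (SE 0.0429). On the log2 scale the effect was smaller with PE for both in the test of the interaction, which 14.4% of all tested genes passed. The siNeg mean of ENSRNOG00000008141 was 790.4 CPM with PE and 32.16 CPM at rest. That of ENSRNOG00000008176 was 2885 CPM with PE and 182.5 CPM at rest. In CPM the gap between siKlf2 and siNeg was wider with PE for both genes. ENSRNOG00000001963 was lower by 2.49 on the log2 scale with PE (log2 fold change -2.49, SE 0.536, adjusted p = 0.00215 in edgeR), with 6.674 and 3.703 CPM in siKlf2 with PE and 30.27 and 27.71 CPM in siNeg with PE. Here the siNeg libraries lay close together. ENSRNOG00000033220 had 3.245 and 1.938 CPM in siKlf2 with PE, against 10.98 and 9.669 CPM in siNeg with PE, a log2 fold change of -2.0 (SE 0.405, adjusted p = 0.00143 in edgeR). All 15 largest rises and all 15 largest falls at rest were called in the same direction with PE, with log2 fold changes of 1.34 to 3.67 and of -3.12 to -1.35. Over all tested genes 26.1% were called higher and 28.2% lower with PE. Among genes of 10 to 100 CPM changed by at least 2-fold at rest, 85 of 85 rises and 114 of 115 falls were called alike with PE.

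In cells given added Klf2, both gene groups lay near the average of all genes. In the other count table, myocytes without PE received an adenovirus carrying Klf2 (AdKlf2) or green fluorescent protein (AdGFP), 3 libraries each, and levels there are given without a test. Replicates there correlated in log2 CPM across genes at 0.984 to 0.987 in AdKlf2 and at 0.962 to 0.967 in AdGFP, so the AdGFP libraries varied more than the others of that table. Of the 358 genes higher after knockdown, 282 were listed in both tables. AdKlf2 exceeded AdGFP in every library for 24.1% of these and lay below it in every library for 21.6%, against 23.0% and 19.5% of all 15944 genes listed in both. Of the 1081 genes lower after knockdown, 888 were listed, and 21.6% were above and 17.0% below in every library. Median log2 ratios of AdKlf2 over AdGFP were -0.05 for the first group, -0.02 for the second and 0.00 for all genes.

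The followed genes showed no common pattern there. ENSRNOG00000008141 had 28.0 ± 3.12 CPM in AdKlf2 and 12.8 ± 4.18 CPM in AdGFP, and ENSRNOG00000008176 had 64.2 ± 2.99 CPM in AdKlf2 and 95 ± 12.4 CPM in AdGFP (SD, n = 3 each). ENSRNOG00000001963 had 23.7, 3.75 and 5.38 CPM in AdKlf2, against 3.78, 13.1 and 6.31 CPM in AdGFP, and its groups overlapped. ENSRNOG00000033220 likewise overlapped, with 5.29, 0.733 and 1.62 CPM in AdKlf2 and 3.26, 4.45 and 1.42 CPM in AdGFP.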

How the data were processed

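Library input was 400 ng of RNA, per the labels. The deposited raw counts per Ensembl gene ID were made by the authors with Trim Galore, STAR and featureCounts on mRatBN7.2, per the submitters' processing notes; versions, strand setting and treatment of mates are not given in the sources used here. The counts of the 8 knockdown libraries were fitted together in edgeR 4.0.16 (R 4.3.3), with a coefficient per group, TMM factors and filterByExpr (minimum count 10, minimum total 15), and contrasts were tested by quasi-likelihood with Benjamini-Hochberg adjustment over all 18173 genes tested. The biological coefficient of variation was 0.049. The procedure was tested on simulated data. Levels are TMM-scaled CPM. Replicates were not copies, since their counts differed by 18.2 (siKlf2) and 15.7 (siNeg) times the sampling variance.

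Because no ID had a symbol, the gene lists and marker lists could not be applied. The followed genes are the 2 largest rises and 2 largest falls among called genes of at least 10 CPM without overlap, which is the rule for named genes without its need of a symbol. The comparison, lists and rules were chosen with earlier results of these data known; level classes, the 29 uneven genes and all genes cited by rank were chosen after their values were seen. The CUT&Tag peaks are not used here. Alternatives were RLE factors, library totals, other filters, DESeq2 1.42.0, halved counts, a replicate block, fits of 4 libraries and leaving out each library. Summaries and figures used matplotlib 3.10.9, scipy 1.17.1, pandas 2.3.3 and numpy 2.4.6 in Python 3.11.15.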

Additional observations from a re-analysis of the deposited data

Results flagged for a closer look

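The knockdown effect of 2 followed genes differed between PE and no PE in a test of the difference itself (edgeR's quasi-likelihood test of the interaction). That of ENSRNOG00000008141 was smaller with PE by 2.44 on the log2 scale (difference -2.44, SE 0.0954, adjusted p = 2.93e-07). That of ENSRNOG00000008176 was smaller with PE by 1.78 (difference -1.78, SE 0.0595, adjusted p = 1.61e-07). Both genes were picked for the largest rises at rest, so a smaller value with PE is partly built into the choice. The labels also give 0 hours without PE and 36 hours with PE, so PE and time cannot be told apart in this test. The difference for ENSRNOG00000001963 was 0.40 (SE 0.722, adjusted p = 0.783) and that for ENSRNOG00000033220 was 0.71 (SE 0.561, adjusted p = 0.466), and neither passed.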

How the results depend on the processing

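With library totals in place of TMM factors, 2288 genes were higher and 8166 lower without PE, with 567 higher and 3364 lower by at least 1.5-fold, 221 and 1623 by at least 2-fold, and 267 lower by at least 4-fold. That scaling gave 1845 higher and 9741 lower genes with PE and 716 higher and 2237 lower in the interaction, and turned the medians at 10 to 100 CPM (-0.16) and 100 to 1000 CPM (-0.03). Testing only genes of at least 10 CPM gave 6451 calls without PE, 3180 of them higher, with 448 higher and 542 lower by 1.5-fold, against 587 and 445 of that level in the fit of all genes, 122 and 135 by 2-fold, and 15 and 6 by 4-fold, and 6531 calls with PE, 2996 of them higher. TMM factors were computed anew over the genes kept, so the scaling differed too. The median was then -0.03 at 10 to 100 CPM, 0.09 at 100 to 1000 CPM and 0.30 at 1000 CPM or more. The log2 fold change was 3.74 against 3.81 for ENSRNOG00000008141 and -2.96 against -2.89 for ENSRNOG00000001963. The part of the scaling in these shifts was not tested. A minimum fold of 1.5 left 3152 calls without PE (1059 higher, 2093 lower), 3265 with PE (1185 and 2080) and 447 in the interaction (202 and 245), and a minimum of 2, added after the data were seen, left 1439 without PE (358 and 1081). Halved counts left 16912 of the 18173 genes in the test and gave 111 falls of at least 4-fold. Leaving out a library gave 1553 to 3312 interaction calls, with 737 to 1581 higher and 796 to 1731 lower, and moved the difference of ENSRNOG00000001963 between -0.82 and 1.05 and that of ENSRNOG00000033220 between -0.08 and 1.27. Leave-one-out fits without PE gave 8152 to 8379 calls. The replicate block gave 9742 calls without PE, 9838 with PE and 2622 in the interaction, close to the 9802, 9866 and 2622 without it, but the labels do not say that a number marks a shared origin. Deviations of same-numbered libraries correlated at -0.0455 to 0.0851 between groups over all tested genes and, over genes of at least 10 CPM, at 0.204 between siKlf2 and siNeg and from -0.336 to 0.324 over all pairs of groups. Of the 1439 genes changed by at least 2-fold, 1138 to 1169 were still called in the same direction with 1 library left out and 1249 in DESeq2, and 0 of those tested changed sign under any alternative. Per-list medians were not run. Halving all counts, the only change of depth tried, gave 244 higher and 837 lower genes by 1.5-fold under 1 CPM, against 254 and 864.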
